A study of Mus musculus with 30 samples.

Results

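The 10 genes described here encode chaperones and folding enzymes of the endoplasmic reticulum (ER): Calr, Canx, Hspa5, Hsp90b1, Pdia3, Pdia4, Pdia6, Dnajb11, Sdf2l1 and Hyou1. They were taken by symbol from 55401 gene IDs counted in punches of the mouse nucleus accumbens, and all 10 passed the filter on low counts, with 130 to 33840 counts per library. Calr and Hspa5 were picked because their levels were higher on desipramine. For that reason the members' values in every contrast that sets desipramine against another drug are a description, with no test of the members. In bulk tissue, more cells of a type and more RNA per cell cannot be told apart.

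Proteins that enter the ER fold with the help of BiP, the Hsp70 chaperone encoded by Hspa5, and of cofactors that load substrates onto it or reset it. Glycoproteins bind the lectin chaperones calnexin (Canx) and calreticulin (Calr), while protein disulfide isomerases form and rearrange their disulfide bonds. When unfolded proteins build up, sensors in the ER membrane start the unfolded protein response, and many of these chaperone genes are among its textbook targets.

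RNA came from 30 male C57Bl/6J mice, with a library for each animal. Mice had tibial spared nerve injury (SNI), a surgical model of neuropathic pain, or sham surgery. Intraperitoneal injections, 2 a day for 3 weeks, began 4 weeks later. Desipramine, a tricyclic inhibitor of noradrenaline reuptake, was given at 15 mg/kg, with 4 SNI and 4 sham libraries. Tianeptine, an antidepressant that is also an agonist of the mu opioid receptor, was given at 30 mg/kg, with 6 SNI and 6 sham libraries. Saline was given to 5 SNI and 5 sham animals, and sham mice on saline are the study's control. Their age is not stated in the labels.

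Library depth was 24.5 to 37.7 M counts in a first set of 24 libraries, replicates 1 to 4 of every group, and 98.0 to 120.7 M counts in a second set of 6 libraries, which holds no desipramine. All 14 markers of medium spiny neurons, the main neuron of this region, were measured in every group. Replicates 2 and 3 of the SNI desipramine group had the lowest medium spiny sums of all libraries, replicate 2 by far and replicate 3 by little. Their medium spiny markers summed to 1269 and 4046 CPM (counts per M counts of the library), against 5583 and 8621 CPM in the other 2 libraries of that group and 4505 to 9595 CPM in all other groups. Of 14 markers of septal, preoptic and hypothalamic neurons, 10 were measured, and they summed to 376 and 345 CPM in those replicates. The other 2 SNI desipramine libraries held 281 and 201 CPM, sham desipramine libraries held 166 to 211 CPM, and all tianeptine and saline libraries held 143 to 433 CPM. Sim1, Avp, Oxt and Hcrt, defining genes of the hypothalamus, were below the filter on low counts.

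The upstream regions of the chaperone genes are shown because their known shared feature is the ER stress element (ERSE), a CCAAT box and a CCACG box held apart by 9 bases. RefSeq (GRCm38.p6) gave a window of 300 bases around the start for 9 of the 10 genes, all except Hyou1. Searching both strands for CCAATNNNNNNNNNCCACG found the element in 5 of the 9: Calr, Canx, Hspa5, Hsp90b1 and Pdia6. Of all 32851 promoter windows, 39 held it (0.119%). In Hsp90b1 it occurred 2 times, once on each strand. The windows below run 5′ to 3′ on the gene's strand, with the ERSE in capitals. Hspa5 lies at chr2:34771840-34772139 on the plus strand, Calr at chr8:84846882-84847181 on the minus strand, and Hsp90b1 at chr10:86705395-86705694 on the minus strand.
Hspa5: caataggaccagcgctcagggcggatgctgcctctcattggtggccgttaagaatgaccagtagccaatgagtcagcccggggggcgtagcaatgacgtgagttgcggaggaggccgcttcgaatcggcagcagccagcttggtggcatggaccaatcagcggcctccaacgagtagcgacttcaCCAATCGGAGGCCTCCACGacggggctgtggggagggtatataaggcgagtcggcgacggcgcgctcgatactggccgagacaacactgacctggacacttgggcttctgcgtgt
Calr: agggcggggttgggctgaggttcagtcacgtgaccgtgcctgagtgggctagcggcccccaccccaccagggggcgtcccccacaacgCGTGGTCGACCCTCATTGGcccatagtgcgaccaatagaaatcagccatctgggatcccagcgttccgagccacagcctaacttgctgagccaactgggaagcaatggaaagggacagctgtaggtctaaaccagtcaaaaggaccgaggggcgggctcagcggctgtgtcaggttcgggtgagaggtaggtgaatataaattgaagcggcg
Hsp90b1: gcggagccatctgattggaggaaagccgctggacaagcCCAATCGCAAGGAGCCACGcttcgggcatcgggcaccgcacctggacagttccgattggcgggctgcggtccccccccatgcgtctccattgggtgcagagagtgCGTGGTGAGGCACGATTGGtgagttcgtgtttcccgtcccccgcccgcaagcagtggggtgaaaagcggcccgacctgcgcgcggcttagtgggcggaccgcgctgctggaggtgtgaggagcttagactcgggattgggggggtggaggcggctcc

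The elements of Canx and Pdia6, and the related ERSE-II of Dnajb11, are printed alone, oriented from the CCAAT or ATTGG end, because they show how far the spacers differ around fixed ends. The first base lay 145 bases before the start in Canx and 98 bases before it in Pdia6. The ERSE-II, searched on both strands as ATTGG and CCACG with any 1 base between them, began 7 bases after the start of Dnajb11 and was present in 12 of all windows (0.0365%).
Canx: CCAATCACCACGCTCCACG
Pdia6: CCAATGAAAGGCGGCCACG
Dnajb11: ATTGGCCCACG

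A plain CCAAT, on either strand and including the one inside each ERSE, stood in all 9 windows, against 37.4% of all windows. The XBP1-type core TGACGTGG stood in none of the 9 and in 0.676% of all. Among the other gene lists, the ERSE was found in Creld2 and Dnajc3, Derl3 and Syvn1, and in none of the 15 cytosolic heat shock genes with a window.

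Divided by the exon length of each gene, Calr had the highest level, 88.6 ± 12.96 CPM per kb (mean ± SD over 30 libraries, as for the next values), above 98.4% of 23678 tested genes with an exon length. Canx followed with 60.3 ± 6.7 CPM per kb. Hsp90b1, the ER form of Hsp90, had 48.3 ± 7.1, Hspa5 had 45.9 ± 8.2 and Pdia3, the disulfide isomerase that works with the lectin chaperones, had 44.5 ± 5.6 CPM per kb. These 3 genes lay within an SD of each other. Pdia6 had 21.9 ± 3.0 CPM per kb and Hyou1, a nucleotide exchange factor for BiP, had 16.1 ± 1.9. Pdia4, a further disulfide isomerase, had 14.4 ± 1.9 and Dnajb11, a BiP cochaperone of the J domain family, had 13.8 ± 1.1. Pdia4 lay within an SD of Hyou1 and of Dnajb11, while Hyou1 and Dnajb11 were further apart than that. Sdf2l1, a partner of Dnajb11, was lowest at 6.23 ± 1.35 CPM per kb, still above 61.8% of the genes tested.

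**Figure D1:**
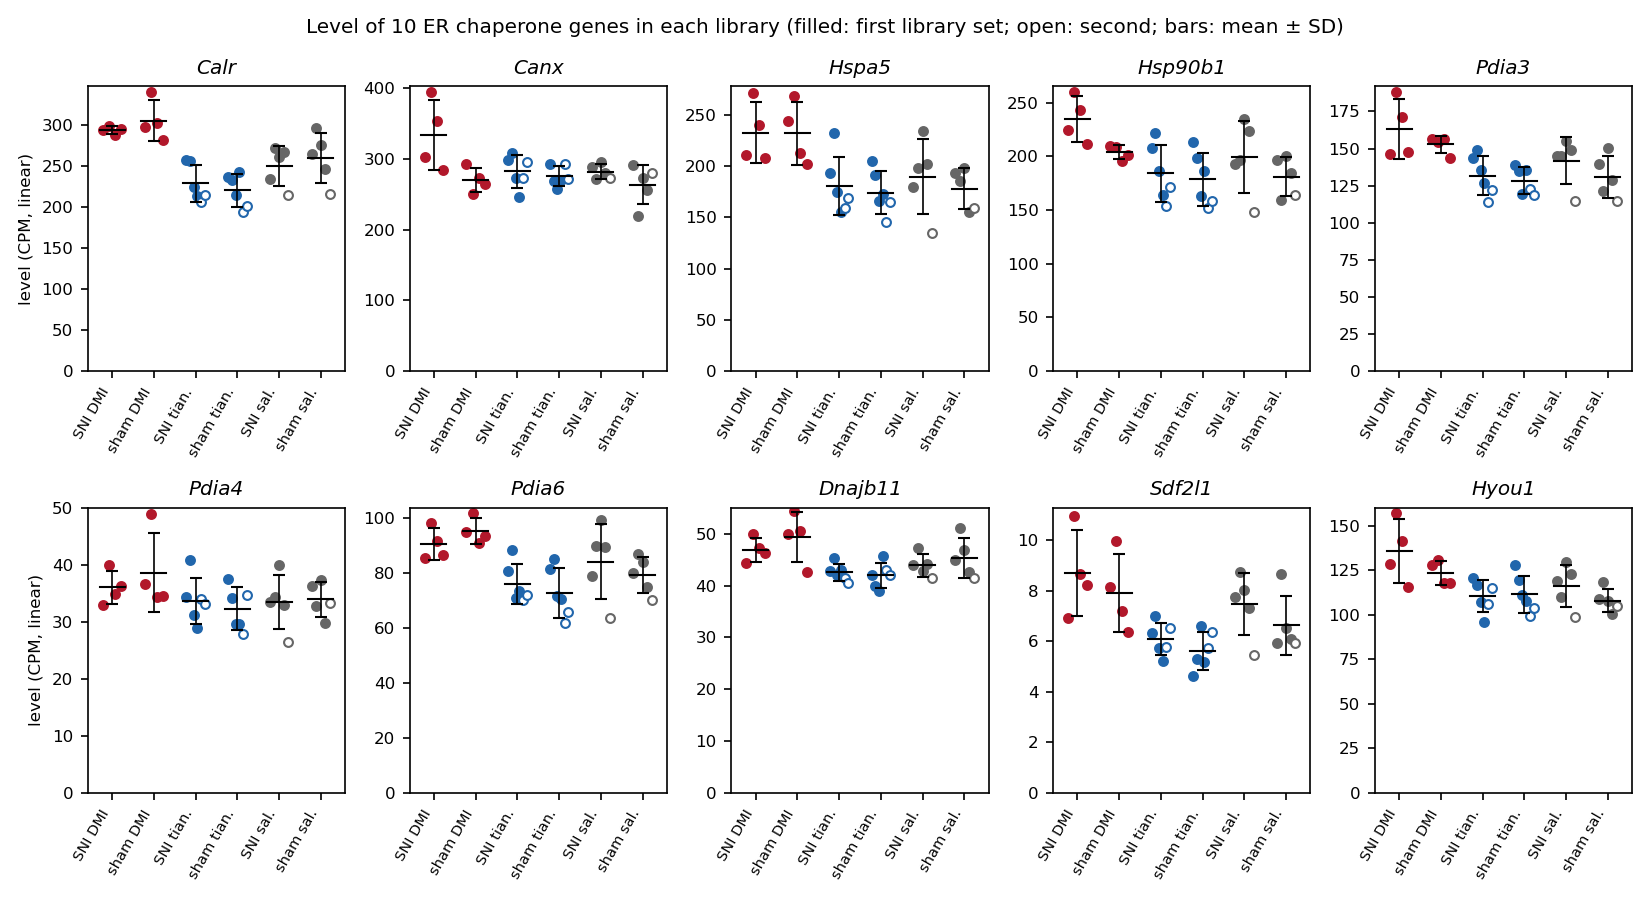
Level of each gene (CPM, linear axis from 0) in each of 30 libraries by group (DMI, desipramine; tian., tianeptine; sal., saline), with the mean ± SD as bars and the second library set as open circles. Calr stood at 288 to 299 CPM in all SNI desipramine libraries, above every SNI saline library, and the open circles lie low in most panels.

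On desipramine all 10 genes were higher than on saline after either surgery. The median log2 fold change was 0.19 after SNI and 0.18 in sham mice, against 0.01 and -0.01 over all 23736 genes tested. The range over the 10 genes was 0.06 to 0.25 after SNI and 0.04 to 0.33 in sham mice. With both surgeries averaged the median was 0.16, from 0.10 for Dnajb11 to 0.29 for Hspa5. Since the list was chosen on this direction, the count of 10 supports nothing by itself. The SNI and sham comparisons use separate saline animals.

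Hspa5 had the highest fold of the 10. Its level was 211, 272, 241 and 208 CPM in the SNI desipramine libraries and 179.5, 198, 234, 202 and 135 CPM in the SNI saline libraries. The sham libraries held 245, 269, 213 and 202 CPM on desipramine and 193, 186, 198, 156 and 159 CPM on saline. The sham groups did not overlap, while after SNI the saline range reached into the desipramine range. The log2 fold change was 0.25 ± 0.11 (SE) after SNI and 0.33 ± 0.11 in sham mice.

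Calr, the soluble lectin chaperone that also buffers calcium in the ER, had 294, 299, 288 and 296 CPM in the SNI desipramine libraries, against 234, 272, 261, 268 and 215 CPM in the SNI saline libraries. Sham libraries had 298, 341, 303 and 282 CPM on desipramine and 265, 297, 276, 247 and 217 CPM on saline. The SNI groups did not overlap, and in sham mice 1 saline library lay inside the desipramine range. The log2 fold change was 0.19 ± 0.07 after both surgeries.

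Groups without overlap and higher on desipramine were seen for Calr alone after SNI, where 1.02% of all genes tested did so, and for Hspa5 and Pdia6 in sham mice, where 0.868% did so. Nothing is read from these shares, because the rule used this contrast. Pdia6 had 85.6, 98.4, 91.9 and 86.6 CPM in SNI desipramine libraries and 78.9, 90.0, 99.3, 89.4 and 63.8 CPM in SNI saline libraries. Among sham mice the levels were 95.1, 102.0, 91.1 and 93.7 CPM on desipramine and 80.1, 87.0, 84.3, 75.0 and 70.4 CPM on saline. Its log2 fold change was 0.06 ± 0.08 after SNI and 0.22 ± 0.08 in sham mice.

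With all libraries, Canx, the membrane-bound lectin chaperone, differed most between the surgeries. Its log2 fold change was 0.25 ± 0.09 after SNI and 0.04 ± 0.09 in sham mice. It had 302, 394, 353 and 285 CPM in SNI desipramine libraries and 289, 272, 296, 280.4 and 273 CPM in SNI saline libraries. Replicates 1, 2 and 3 on desipramine lay above every SNI saline library, and replicates 2 and 3 stood highest. Without replicates 2 and 3 the fold of Canx after SNI was smaller, as given below. Pdia3, the partner of both lectins, had 146, 188, 171 and 147 CPM in SNI desipramine libraries and 145, 145, 155, 149 and 115 CPM in SNI saline libraries, a log2 fold change of 0.17 ± 0.07. In sham mice its fold change was 0.18 ± 0.07.

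The 3 cofactors of BiP stood higher on desipramine as well. Hyou1, which renews the nucleotide on BiP, had 129, 157, 142 and 116 CPM in SNI desipramine libraries and 119, 110.2, 129.8, 123 and 98.9 CPM in SNI saline libraries. Among sham mice the levels were 128, 131, 118 and 118 CPM on desipramine and 109, 118, 108, 100.5 and 105 CPM on saline. Replicate 2 on desipramine was the highest after SNI, and both pairs of groups overlapped. The log2 fold change was 0.20 ± 0.08 after SNI and 0.17 ± 0.08 in sham mice.

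Sdf2l1, which forms a complex with Dnajb11, had 6.91, 10.98, 8.67 and 8.21 CPM in SNI desipramine libraries and 7.75, 8.76, 8.05, 7.30 and 5.47 CPM in SNI saline libraries. In sham mice it had 8.16, 9.97, 7.19 and 6.37 CPM on desipramine and 5.93, 8.66, 6.504, 6.10 and 5.92 CPM on saline. The groups overlapped after both surgeries, and the SE was wide, at 0.21 ± 0.15 after SNI and 0.25 ± 0.15 in sham mice. Dnajb11 varied least, with 44.4, 49.9, 47.3 and 46.2 CPM in SNI desipramine libraries and 44.0, 47.3, 42.8, 44.2 and 41.4 CPM in SNI saline libraries. Its log2 fold change was 0.08 ± 0.06 after SNI and 0.11 ± 0.06 in sham mice.

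Hsp90b1 encodes Grp94, which folds a narrower set of clients such as integrins and Toll-like receptors. It had 225, 260.1, 243 and 212 CPM in SNI desipramine libraries and 193, 197, 235, 223 and 148 CPM in SNI saline libraries, which overlapped, and the log2 fold change was 0.19 ± 0.09. In sham mice it had 209.9, 209, 196 and 201 CPM on desipramine and 197, 159.7, 200.1, 184 and 165 CPM on saline, a log2 fold change of 0.11 ± 0.09. Pdia4 had 33.1, 40.0, 35.0 and 36.3 CPM in SNI desipramine libraries and 33.5, 34.4, 40.0, 32.9 and 26.6 CPM in SNI saline libraries. Its groups overlapped, with a log2 fold change of 0.09 ± 0.11 after SNI and 0.17 ± 0.12 in sham mice, which was 0.03 without sham desipramine replicate 2.

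**Figure D2:**
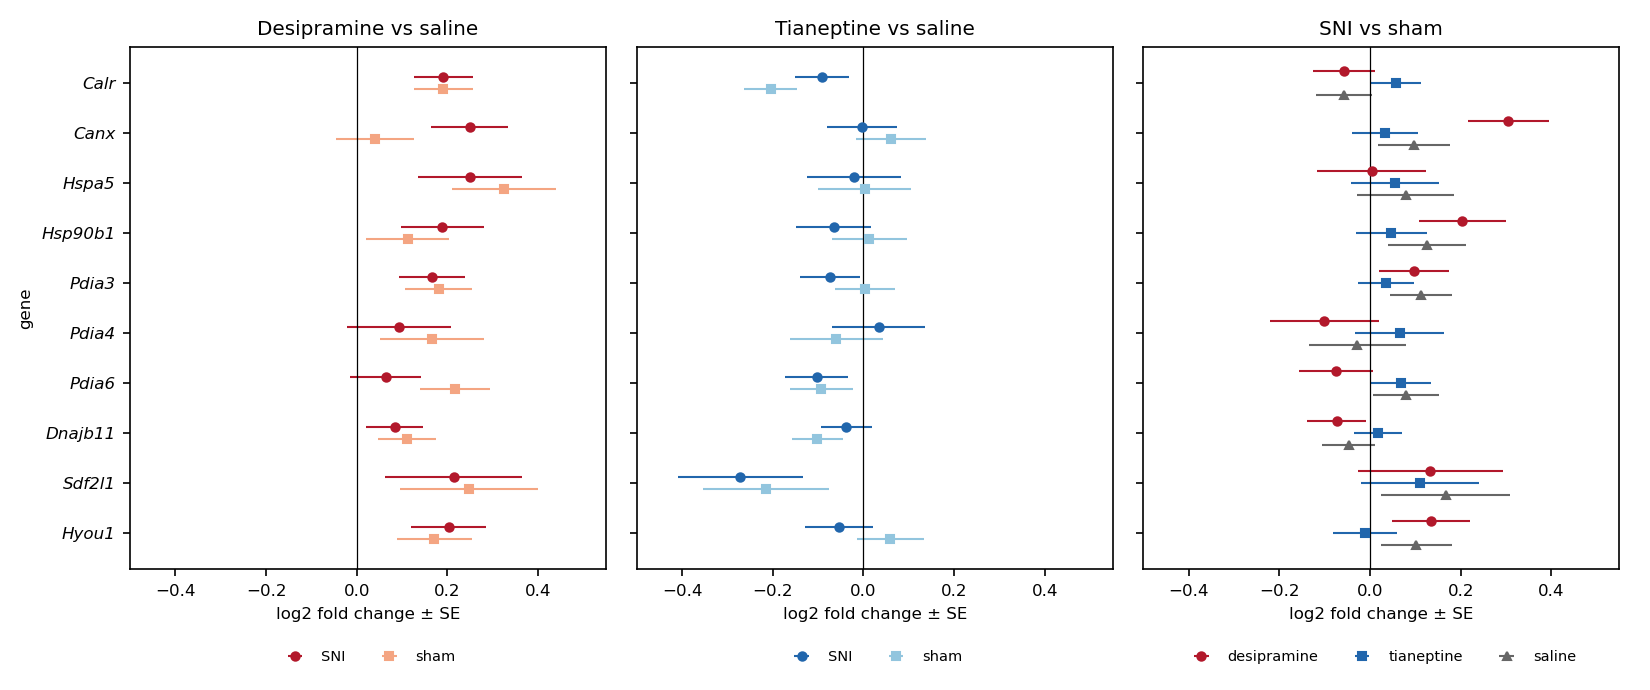
Log2 fold change ± SE of the 10 genes for desipramine vs saline, tianeptine vs saline and SNI vs sham, with 0 as a line. All desipramine points lie above 0, the tianeptine points of Calr and Sdf2l1 lie lowest, and Canx stands highest for SNI vs sham on desipramine.

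After SNI, most of the members' folds were smaller without the 2 libraries lowest in medium spiny markers. Without SNI desipramine replicates 2 and 3 the median over the 10 genes was 0.03, with 9 of 10 still above 0, and without replicate 2 alone it was 0.10. With the medium spiny and septal marker scores as covariates the median was 0.06, with 8 of 10 above 0. Hspa5 was then at 0.09 without the 2 libraries and Canx at 0.06, while Pdia3 was at 0.0035 and Sdf2l1 at 0.0049. Calr stayed at 0.19 without them and at 0.18 with the covariates. It was picked for higher levels on desipramine, so its steady value supports nothing by itself. With both surgeries averaged and the 2 libraries left out, all 10 genes were above 0, with a median of 0.10. The 7 markers of cortical excitatory neurons, which are not among the covariates, summed to 84.3 to 258 CPM in SNI desipramine libraries and 73.9 to 967 CPM in SNI saline libraries. They summed to 87.7 to 1237 CPM in sham desipramine libraries and 267 to 510.4 CPM in sham saline libraries, and their part in these folds was not tested. The sham comparison does not use SNI desipramine replicates 2 and 3. Its median was 0.17 with the covariates, and all 10 genes stayed above 0. Leaving out sham saline replicate 2 put Canx in sham mice at -0.02, with the other 9 above 0. The difference of the drug's log2 fold change between SNI and sham mice ranged from -0.15 for Pdia6 to 0.21 for Canx with all libraries, and from -0.25 to 0.01 without the 2 libraries.

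**Figure D3:**
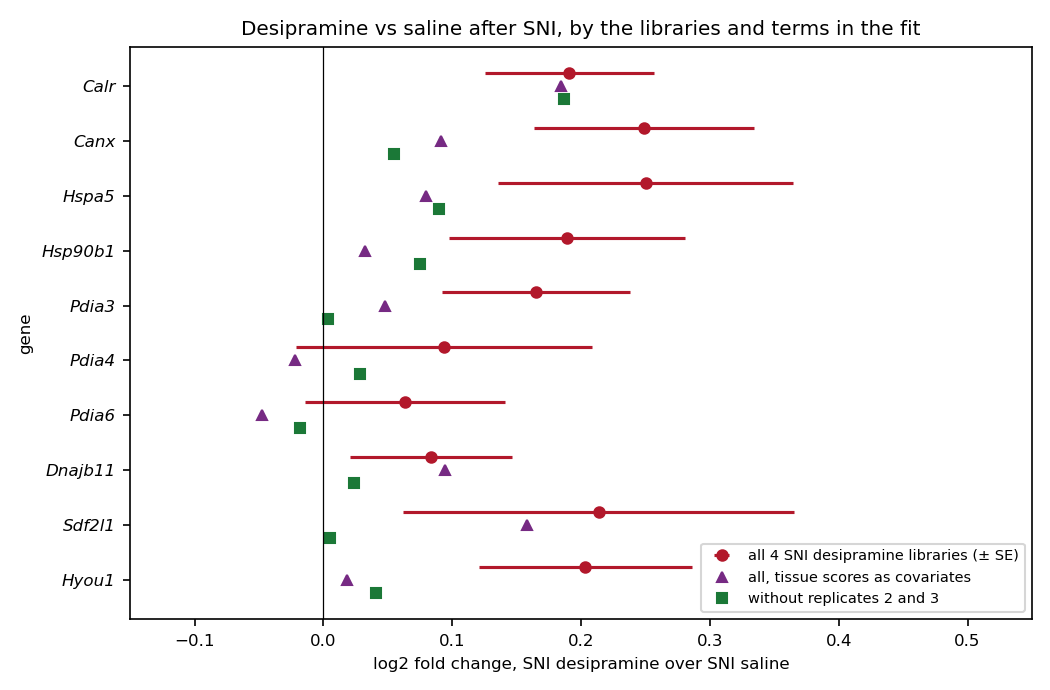
Log2 fold change of each gene for SNI desipramine over SNI saline with all libraries (circles, ± SE), with tissue marker scores as covariates (triangles) and without SNI desipramine replicates 2 and 3 (squares). Calr, picked for higher levels on desipramine, kept a value near 0.19 in all 3, while most other genes moved towards 0.

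Set against tianeptine, with both surgeries averaged, desipramine again gave higher levels of all 10 genes, with a median log2 fold change of 0.20 and a range of 0.12 to 0.47. Of the 10, 3 passed the threshold (Calr, Sdf2l1 and Pdia6), as did 0.438% of all genes. The desipramine libraries were used to pick Calr and Hspa5, so this count is a description and no test of the members. Nothing is read from it or from how it compares with the share of all genes. The largest were Sdf2l1 with 0.47 ± 0.11, Calr with 0.34 ± 0.05 and Hspa5 with 0.30 ± 0.08. The desipramine libraries are the same as above, so these values do not stand apart from the comparison with saline.

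Tianeptine against saline was not used to choose the genes and was tested. It shares its saline libraries with the desipramine comparison. None of the 10 genes passed an adjusted p of 0.05 in edgeR, DESeq2 or limma-voom in SNI mice, in sham mice or with both averaged, where edgeR called 0% of all genes and DESeq2 called 1 gene. The median log2 fold change was -0.06 after SNI, -0.03 in sham mice and -0.03 averaged, and 8 of 10 averaged values were below 0. At an unadjusted p under 0.05, Calr and Sdf2l1 were lower averaged over surgeries, as were 2.01% of all genes, with 1126 genes in either direction.

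Calr was 207 to 258 CPM (median 220.0) in SNI tianeptine libraries and 234, 272, 261, 268 and 215 CPM in SNI saline libraries. The sham values were 195 to 243 CPM (median 224) on tianeptine and 265, 297, 276, 247 and 217 CPM on saline. The groups overlapped after both surgeries. In sham mice this was through the saline library of the second set, as the other 4 saline libraries (247 to 297 CPM) lay above all tianeptine libraries. The share of all genes that separate in this way was not measured, so nothing is read from it. The log2 fold change was -0.09 ± 0.06 after SNI, -0.20 ± 0.06 in sham mice (edgeR adjusted p = 0.714) and -0.15 ± 0.04 averaged (edgeR adjusted p = 0.970, unadjusted p = 0.0015).

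Sdf2l1 was 5.22 to 6.99 CPM (median 6.05) in SNI tianeptine libraries and 7.75, 8.76, 8.05, 7.30 and 5.47 CPM in SNI saline libraries. In sham mice it was 4.62 to 6.60 CPM (median 5.50) on tianeptine and 5.93, 8.66, 6.504, 6.10 and 5.92 CPM on saline. Both pairs of groups overlapped. After SNI this was through the saline library of the second set, as the other 4 saline libraries (7.30 to 8.76 CPM) lay above all tianeptine libraries. Here too the share of all genes was not measured, and nothing is read from it. Its averaged log2 fold change was -0.24 ± 0.10 (edgeR adjusted p = 0.970, unadjusted p = 0.0205). Hspa5 had an averaged log2 fold change of -0.01 ± 0.07, with a 95% interval of -0.16 to 0.14, which includes the value of Calr. Canx was at 0.03 ± 0.05 and Hyou1 at 0.00 ± 0.05. The tianeptine difference between SNI and sham mice was within -0.11 to 0.11 for the 10 genes, and none passed (edgeR adjusted p from 0.989).

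Surgery alone moved none of the 10 genes past the threshold on saline or on tianeptine. On saline the SNI over sham log2 fold changes ran from -0.06 for Calr to 0.17 for Sdf2l1, with a median of 0.09. The smallest edgeR adjusted p was 0.607, for Pdia3, with 0% of all genes called, 2311 (9.74%) at an unadjusted p under 0.05, none of them members, and 1 called by DESeq2. On tianeptine they ran from -0.01 to 0.11, with no member under an unadjusted p of 0.05, 287 genes (1.21%) in all under it, 0% called by edgeR and 14 by DESeq2. The 95% interval of Hspa5 for SNI over sham was -0.14 to 0.30 on saline and -0.15 to 0.26 on tianeptine.

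On desipramine, SNI over sham, Canx was the 1 of 10 members to pass, where 11.3% of all genes passed. The share of members was near that background. Canx had 302, 394, 353 and 285 CPM after SNI and 292, 251, 273 and 264 CPM in sham mice, and the groups overlapped. Its log2 fold change was 0.31 ± 0.09 (edgeR adjusted p = 0.0295). Other markers moved in the same comparison. Those of cortical excitatory neurons summed to 110.3, 84.3, 124 and 258 CPM in SNI desipramine libraries and 929.5, 472, 1237 and 87.7 CPM in sham desipramine libraries. Among them Slc17a7 was at -3.61 ± 1.69 and Neurod6 at -3.93 ± 1.54, neither passing (edgeR adjusted p = 0.164 and 0.0965). Cux2 alone of that list was higher after SNI, at 0.62 ± 0.25, and did not pass either (edgeR adjusted p = 0.101). Those of the choroid plexus summed to 50.7 to 72.1 CPM after SNI and 22.3 to 46.6 CPM in sham mice. Of that list Ttr, Clic6 and Otx2 were above 0, and Kl (-0.30 ± 0.52) and Kcnj13 (-0.65 ± 0.78) were below 0. Of the 6 astrocyte markers, Aldh1l1 was higher after SNI and passed, at 0.40 ± 0.09 (edgeR adjusted p = 0.0102). Slc1a2 alone of them was below 0, at -0.29 ± 0.15. The part of these markers in the fold of Canx was not tested. The desipramine libraries are among those used to pick Calr and Hspa5. Without SNI desipramine replicates 2 and 3, the fold change of Canx was 0.11 (edgeR adjusted p = 0.745). With the marker scores as covariates it was 0.11 (edgeR adjusted p = 0.792). No gene of all those tested passed in either setting, so the lost call is not particular to Canx.

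Hsp90b1 had 225, 260.1, 243 and 212 CPM in SNI desipramine libraries and 209.9, 209, 196 and 201 CPM in sham desipramine libraries. Each SNI library was above each sham library, as for 5.49% of all genes, but the log2 fold change of 0.20 ± 0.10 did not pass (edgeR adjusted p = 0.168). It was -0.0016 with the marker scores as covariates. Exons of Hsp90b1 overlap those of 1810014B01Rik, a pseudogene transcript on the opposite strand. Summed over all pairs of annotated exons the overlap was 1796 bases, where a base in several transcripts counts repeatedly. The library kit was stranded, but the strand setting of the counting is not stated, so reads of the 2 genes may be mixed. By the same sum the overlap was 242 bases for Pdia6 with Atp6v1c2 and 18 bases for Pdia3 with Catsper2.

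Within groups the 10 genes varied together from animal to animal to unlike degrees. After group and library set were taken out of log2 CPM, Pearson's r over 30 libraries ran from 0.02 to 0.90 for the 45 pairs, with a median of 0.56 and 26 pairs over 0.5. Pairs of other genes were not measured in this way, so these values have no background beside them. Hspa5 was closest to the rest, with r = 0.96 to the mean of the other 9, and its highest pairs were Pdia4 (0.90) and Pdia6 (0.88). Canx, Hsp90b1 and Pdia3 had r of 0.78 to 0.85 with each other. Dnajb11 was least like the rest (0.42), and had its highest values with Calr (0.66) and Sdf2l1 (0.59). These are descriptions over libraries that share the tissue and the scaling, and r of the members' mean with the septal marker score was 0.54 and with the medium spiny score -0.34. Their part in the covariation was not tested.

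**Figure D4:**
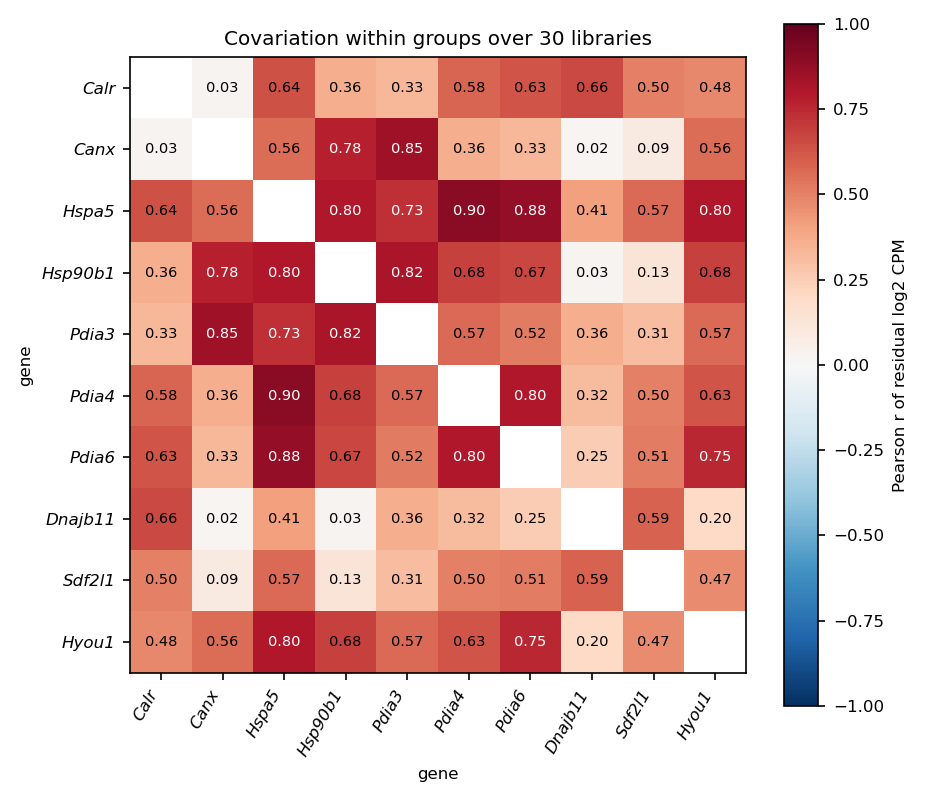
Pearson's r between residual log2 CPM of each pair of genes over 30 libraries (red positive, blue negative), after group and library set were removed. Hspa5 with Pdia4 is highest at 0.90, and Canx with Dnajb11 is lowest at 0.02.

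Of 12548 other genes whose log2 CPM averaged 3 or more, those whose residuals were most like the members' mean were 1810014B01Rik (r = 0.857), Xbp1 (0.798), Gm15344 (0.797), Mlec (0.775) and Tubb6 (0.740). The next were Arhgap24, Gm16163, Gm6563, Slc46a3 and Cct3, with r of 0.717 to 0.726. 1810014B01Rik and Gm15344 both overlap exons of Hsp90b1, so shared reads can enter their likeness. Xbp1 encodes a transcription factor of the unfolded protein response, and Mlec encodes malectin, an ER protein that binds glucosylated glycans.

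Beyond the 10 chaperones, none of the other ER genes passed in edgeR for desipramine over saline with both surgeries averaged, where it called 0.0295% of all genes, 2973 genes had an unadjusted p under 0.05 and DESeq2 called 132. Of 16 sensors and regulators of the unfolded protein response, 6 were above 0 and 10 below, with a median of -0.02. Xbp1 was the highest among them at 0.17 ± 0.07 (edgeR adjusted p = 0.310), and on tianeptine over saline it was at -0.01 ± 0.06. Atf4 was at 0.09 ± 0.09 and Ddit3, which encodes the stress factor CHOP, at -0.10 ± 0.05. The stress sensors Eif2ak3, Ern1 and Atf6 were at 0.00 ± 0.04, 0.05 ± 0.05 and -0.08 ± 0.09.

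Of 34 other chaperones, cochaperones and disulfide enzymes, 20 were above 0, with a median of 0.03. Among them Dnajc3, an inhibitor of the sensor PERK and a BiP cochaperone, was at 0.15 ± 0.06 and Cdnf at -0.30 ± 0.10. Manf, secreted on ER stress, was at 0.07 ± 0.03 and P4hb, the founding disulfide isomerase, at -0.02 ± 0.04. The 26 genes of ER-associated degradation had a median of 0.02. They included Selenos at -0.18 ± 0.04 (edgeR adjusted p = 0.0957), Nploc4 at 0.15 ± 0.04, Sel1l at 0.12 ± 0.04 and Herpud1 at 0.06 ± 0.05. By DESeq2, Selenos passed (adjusted p = 0.0036), as did Uggt1, which encodes a sensor of glycoprotein folding (0.11, adjusted p = 0.0498), and Sec24c of the ER exit coat (0.09, adjusted p = 0.0266). The N-glycan, translocation and exit lists had medians of 0.01, -0.00 and 0.01. On tianeptine over saline, surgeries averaged, none of the ER genes of these lists passed, the smallest p being that of Ppp1r15b, at 0.15 ± 0.04 (edgeR adjusted p = 0.970).

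**Figure D5:**
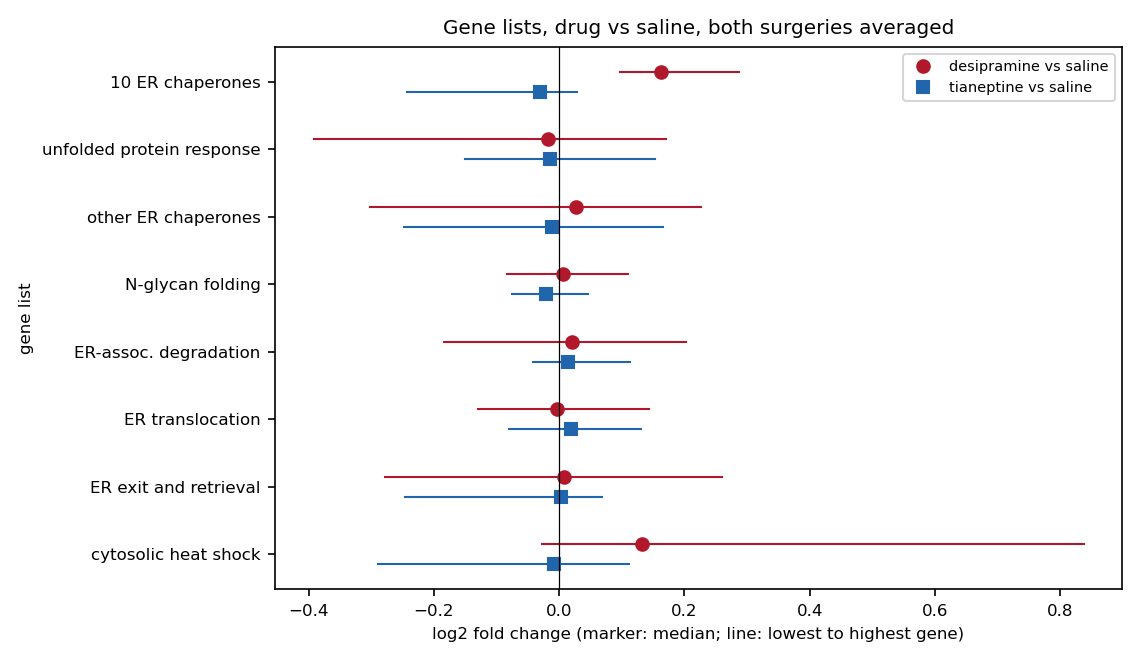
Median (marker) and range (line) of the log2 fold changes of each gene list for desipramine vs saline and tianeptine vs saline, surgeries averaged. The 10 chaperones have the highest desipramine median, 0.16, followed by the cytosolic heat shock list at 0.13, and the other ER lists lie between -0.02 and 0.03. Calr and Hspa5 were picked for higher levels on desipramine, so the place of the 10 in this order supports nothing by itself.

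The second library set, which has only saline and tianeptine animals and greater depth, had lower levels of 9 of the 10 genes in the same fit, with a median log2 difference of -0.17, against 0.01 over all genes. Of the 10, 5 passed as lower (Calr, Hspa5, Hsp90b1, Pdia3 and Pdia6), as did 15.8% of all genes. Hsp90b1 was at -0.30 ± 0.07 (edgeR adjusted p = 0.000877) and Hspa5 at -0.29 ± 0.08 (edgeR adjusted p = 0.00936). With the first library set alone, all 10 genes were still above 0 for desipramine over saline, with a median of 0.13 after SNI and 0.18 in sham mice.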

How the data were processed

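Per the labels' protocols, RNA was taken with TRIzol and made into libraries with a stranded mRNA kit. The submitters' processing notes name Trim Galore, HISAT2, SAMtools, featureCounts and the build mm10, while versions, annotation and the strand setting are not stated there. The authors deposited whole-number counts per gene and library, which were used here as deposited. A deposited FPKM table was not used. Library sets were read from the numbers in the library names. Within the first set these numbers run in blocks by group, so any effect of that order and the group cannot be told apart.

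Symbols and exon lengths came from GENCODE M21, where 9 of the 10 members matched by exact ID and Pdia6 without its version, and promoters from RefSeq. Unmatched IDs held 0.0509% of counts. R 4.3.3 and edgeR 4.0.16 were used: filterByExpr left 23736 genes with 99.925% of counts, and a robust quasi-likelihood model with TMM scaling had terms for the 6 groups and the library set, with 23 residual degrees of freedom. All p values are 2-sided, with Benjamini-Hochberg adjustment over all tested genes and a threshold of 0.05, and SE and 95% intervals come from this fit. CPM are scaled by TMM, and residuals use log2 CPM with a prior count of 2. The test was checked on simulated counts. No 2 libraries of a group were near copies (smallest chi-square per degree of freedom 7.51).

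The members, lists and rules were chosen with earlier results of these data known. All members are named. From the other ER lists, genes that passed and up to 3 of smallest p per comparison could be named, with Eif2ak3, Ern1, Atf6, Xbp1, Atf4, Ddit3, Herpud1, Manf, Creld2 and P4hb, and the 10 genes most like the members' mean. Hspa8 and Hspa1b are named by choice after their values were seen. Same-numbered libraries of sham desipramine and sham saline had residuals with r over 0.1 each time (lowest 0.11 of 4), which no label explains. This was 1 of 15 pairs of groups, picked after all were seen, with r from -0.79 to 0.58 over all 67 same-numbered pairs, so no pairing is read from it. Alternatives were DESeq2 1.42.0, limma-voom 3.58.1, RLE scaling, no filter, the first library set, a replicate block, tissue scores as covariates and leaving out libraries.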

Additional observations from a re-analysis of the deposited data

Results flagged for a closer look

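Of 60 combinations of a gene and a group, 3 held a library far from the others of its group, and chance alone marks about 1 in 20. Pdia3 in SNI saline replicate 5, a library of the second set, was lowest at 114.7 CPM, with the nearest other at 144.9 CPM. Pdia4 in sham desipramine replicate 2 was highest at 49.03 CPM, with the nearest other at 36.77 CPM. Without that library the log2 fold change of Pdia4 for desipramine over saline in sham mice was 0.03, against 0.17 with it. Sdf2l1 in sham saline replicate 2 was highest at 8.662 CPM, with the nearest other at 6.504 CPM.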

How the results depend on the processing

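Members past the threshold were counted again for SNI over sham and for tianeptine over saline, and the count stayed at 0 under every alternative run, except for SNI over sham on desipramine. For desipramine against another drug, where members are not tested, it was not counted again. In SNI over sham on desipramine, Canx was the only member called. Its call was lost, leaving 0, without the filter on low counts (edgeR adjusted p = 0.0771), with the first library set only (0.0682), with tissue scores as covariates and without SNI desipramine replicates 2 and 3. Leaving out 1 library gave 0 to 1 members, with log2 fold changes of Canx of 0.20 to 0.37, and the call was lost without sham desipramine replicates 2, 3 or 4 or SNI desipramine replicates 2 or 3. The median of the members for desipramine over saline after SNI was 0.063 with tissue scores and 0.035 without SNI desipramine replicates 2 and 3, and that of the desipramine by surgery difference was -0.14 without them; these libraries differ in the marker scores, and the cause was not tested. Signs turned, for desipramine over saline after SNI, for Pdia6 (-0.048 with tissue scores, -0.018 without SNI desipramine replicates 2 and 3) and Pdia4 (-0.022 with tissue scores), and in sham mice for Canx (-0.021 without sham saline replicate 2, -0.024 without replicates 2 and 3). In the desipramine by surgery difference they turned under at least 1 alternative for all members but Canx and Pdia6. For SNI over sham on desipramine, 2 of 10 members were above 0 with tissue scores and 2 without SNI desipramine replicates 2 and 3, against 6 with all libraries. Signs also turned for Hsp90b1 in SNI over sham on desipramine (-0.0016 with tissue scores) and, for desipramine over saline averaged, for Herpud1 (-0.029 with tissue scores, -0.016 without SNI desipramine replicates 2 and 3) and P4hb (0.012 without sham saline replicates 2 and 3).

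Over all genes, DESeq2 called 132 genes for desipramine over saline averaged, 555 after SNI, 22 in sham mice, 100 for the difference between surgeries and 422 for desipramine over tianeptine, against 7, 0, 0, 0 and 104 in edgeR. Against 2681 for SNI over sham on desipramine, 1701 passed without the filter, 0 with tissue scores, 0 without SNI desipramine replicates 2 and 3, 13 without replicate 2 alone and 5802 without replicate 4. Leaving out SNI desipramine replicate 4 gave 3164 genes for desipramine over saline after SNI.

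With a replicate block, the median of the members for desipramine over saline in sham mice was 0.17 and Canx for SNI over sham on desipramine was at 0.30 (edgeR adjusted p = 0.0363), and no member's call differed in the comparisons counted again. The numbers did not pair the groups in general: of 67 same-numbered pairs, 24 had r over 0.1, and 1 of 15 pairs of groups had every r over it. Sdf2l1, with 130 counts in its shallowest library, had the largest SE.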

Other observations

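The cytosolic heat shock genes, chaperones outside the ER, were set beside the ER chaperones. On desipramine over saline with both surgeries averaged, 18 of 20 were above 0, with a median log2 fold change of 0.13, and none passed in edgeR, where 9 had an unadjusted p under 0.05. Of all genes tested, 49.5% were above 0 and 12.5% had an unadjusted p under 0.05. Hspa8, the constitutive Hsp70, was at 0.18 ± 0.06 (edgeR adjusted p = 0.238) and the inducible Hspa1b at 0.84 ± 0.40. Without SNI desipramine replicates 2 and 3, 18 of 20 were above 0 and the median was 0.08. On tianeptine over saline the median was -0.01. Residuals of this list and of the 10 ER chaperones had r = 0.42 over 30 libraries.

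For SNI over sham on desipramine, where 11.3% of all genes passed, members of the other ER lists moved in both directions. The counts per list were not tested against that share, so nothing is read from them. Of 16 unfolded protein response genes, Ern1, the sensor IRE1, rose by 0.32 ± 0.08 on the log2 scale (edgeR adjusted p = 0.0132). Atf6 was at -0.56 ± 0.14 (edgeR adjusted p = 0.0131) and Atf6b at -0.23 ± 0.08 (edgeR adjusted p = 0.0486), both sensors that become transcription factors after cleavage. Of 34 other chaperones and disulfide enzymes, 5 rose and 1 fell, among them the disulfide enzymes Tmx4 (0.48 ± 0.14), Tmx1 (0.40 ± 0.10) and Ero1l (0.27 ± 0.08) and the BiP cochaperone Dnajb9 (0.23 ± 0.07). Of 26 degradation genes, 2 rose, including the ubiquitin conjugating enzyme Ube2j1 (0.36 ± 0.09), and 1 fell, Ube2g2 (-0.45 ± 0.11). Surf4, a cargo receptor of ER exit, was at -0.18 ± 0.04 and Tram1 of the translocon at 0.36 ± 0.12. Without SNI desipramine replicates 2 and 3, and with the marker scores as covariates, none of the genes named here for this comparison passed. No gene of all those tested passed in either setting, so this is not particular to the ER genes.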
